A study of Mus musculus with 20 samples.

Results

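Mitochondrial solute carriers (the Slc25 family) were examined in the epididymal adipose tissue (eWAT) of C57BL/6J mice. The members are all genes of the deposited table whose symbol is Slc25a followed by a number, which gave 39 of 14776 genes. Their names alone chose them, so no expression value entered the choice. Counts given for the family cover these 39 genes alone. Members of the family with other symbols, such as the uncoupling protein Ucp2, are not in them. RNA-seq values came from 20 male mice that entered the experiment at 6 weeks of age. The NC group (6 mice) ate a maintenance chow for 20 weeks. The HFD group (7 mice) ate a diet with 60 kcal% fat for 20 weeks and received saline by gavage over the last 6 weeks. The SZ-A group (7 mice) ate that same diet for 20 weeks and received SZ-A, an alkaloid preparation of mulberry twig (Ramulus Mori, Sangzhi), at 400 mg/kg/day by gavage over the last 6 weeks. No genetic change is named for any group, and all mice were fasted overnight before the tissue was taken. HFD against NC addresses the diet, and SZ-A against HFD addresses the treatment under the diet. Whether NC mice received gavage is not stated, so HFD and NC may differ in gavage as well as in diet. No NC mouse received SZ-A, so the treatment without the diet was not measured, and both comparisons use the same 7 HFD mice.

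Carriers of this family sit in the inner mitochondrial membrane, where each moves a small set of metabolites between the matrix and the cytosol. They exchange ADP for ATP, bring in phosphate, and pass citrate, acylcarnitines, amino acids, cofactors and iron. A few members have another place, among them Slc25a17 of the peroxisome and Slc25a46 of the outer membrane. In fat cells, citrate leaves the matrix through Slc25a1 to feed fatty acid synthesis, and acylcarnitine enters through Slc25a20 for oxidation. Several members form pairs of related carriers with the same cargo, such as Slc25a4 and Slc25a5 for ADP and ATP.

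Expression is given as FPKM, a fragment count set relative to the length of the gene and the depth of the library, so levels can be set side by side between genes. Differences are log2 fold changes of FPKM + 1, which understate the change of low genes. A gene is called when its Benjamini-Hochberg adjusted p from limma is under 0.05, with the adjustment over all genes tested and not over the family. Whole eWAT was sequenced, so fewer cells of a type and less RNA per cell cannot be told apart.

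Some libraries stood apart, and results that rest on them are given with and without them. NC 6 had an adipocyte marker level (mean log2(FPKM + 1) of 16 markers) of 4.34, below every other mouse. The 6 epididymis and epithelial markers that were found, of 36 looked for, had a mean of 2.81 to 6.05 in NC mice, 1.12 to 1.68 in HFD mice and 0.940 to 5.59 in SZ-A, where SZ-A 2 (5.59) and SZ-A 7 (5.02) were highest. Secreted proteins that define the epididymis, such as Crisp1, Lcn5 and Gpx5, are among the 30 not analysed here. SZ-A 5 had 11.6% of its reads on mitochondrially encoded genes and the highest red cell marker level, 9.10. All 20 macrophage markers were listed, and their mean level was 2.03 to 4.09 in NC mice, 6.58 to 7.67 in HFD mice and 5.10 to 6.60 in SZ-A. Adipocyte markers such as Adipoq and Plin1 were above 0 in every library, as every gene of the deposited values was, so their presence alone shows little. The 16 adipocyte markers summed to 640 FPKM in NC 6, beside a median of 15429 in NC. The part of these cell types in the changes of the carriers was not tested beyond the values given below.

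Under the high-fat diet 16 of the 39 carriers were called, 4 higher and 12 lower than in NC. Across all 14706 genes tested, 41.1% were called, 21% higher and 20.1% lower, so the share of the family was close to that of all genes while 3 in 4 of its calls were lower. The median log2 fold change was -0.15 over the carriers and -0.04 over all genes. With SZ-A, 9 carriers were called against HFD, 7 higher and 2 lower, and the percentage called among all 14695 genes was 22.8%, with 9.47% higher and 13.3% lower. The median was 0.07 over the carriers and 0.03 over all genes. No carrier was called between SZ-A and NC by limma, where 4.61% of 14718 genes were called (4.15% higher and 0.455% lower). At an unadjusted limma p under 0.05 there were 5 of 39 carriers, where 19% of all genes passed. Voom on recovered reads called 0 as well, whereas 2 carriers were called higher with all 3 groups in one limma fit (Slc25a24 among them, adjusted p = 0.0138) and 2 with the libraries that stood apart left out (Slc25a45 among them, 0.80, adjusted p = 0.0476). In that order, these settings called 4.15%, 10.4% and 7.66% of all genes.

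Slc25a24, Slc25a13, Slc25a4, Slc25a22, Slc25a29, Slc25a33, Slc25a42 and Slc25a47 were called in both comparisons, and in 8 of 8 the directions were opposite. Since both comparisons use the same HFD mice, opposite directions are not independent of each other. Another 8 carriers were called for the diet alone, 1 for SZ-A alone and 22 in neither comparison. The share of all genes called in both comparisons, or in opposite directions, was not computed. These counts therefore do not show a trait particular to the carriers.

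**Figure D1:**
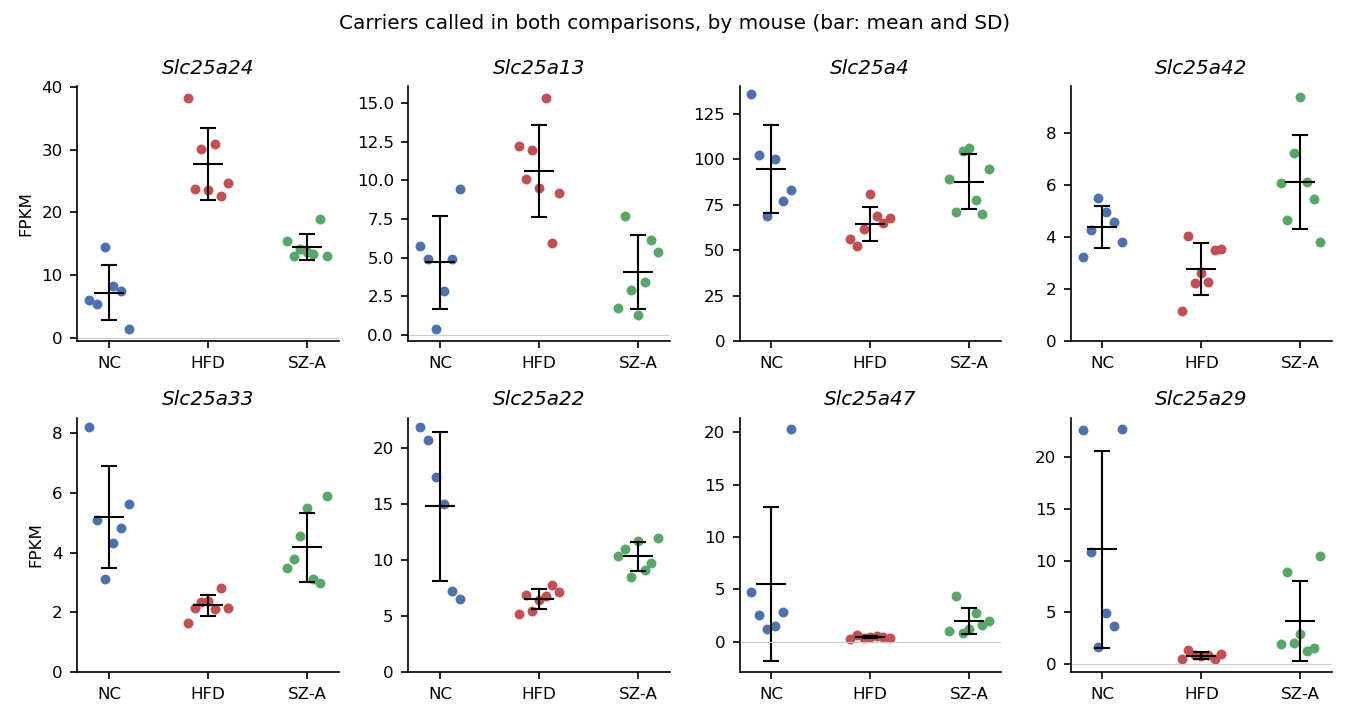
FPKM (vertical axis) of the 8 carriers called in both comparisons, with a point per mouse in NC (blue, 6 mice), HFD (red, 7) and SZ-A (green, 7), and bars for the mean and SD. Slc25a24 and Slc25a13 were highest in HFD, and the other 6 had their lowest group mean in HFD.

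The promoters of 4 of these carriers are shown because the data turn on them. In Slc25a24, Slc25a33 and Slc25a47 the groups did not overlap in either comparison, and Slc25a13 was the other carrier with a higher level in HFD in both. Each is the 250 bases before the transcription start in RefSeq on GRCm38.p6, written 5′ to 3′ on the strand of the gene: Slc25a24 at chr3:109122899-109123148 on the plus strand, Slc25a13 at chr6:6217174-6217423 on the minus strand, Slc25a33 at chr4:149774268-149774517 on the minus strand and Slc25a47 at chr12:108850879-108851128 on the plus strand. Capitals mark matches, on either strand, to the motifs named after them.
Slc25a24: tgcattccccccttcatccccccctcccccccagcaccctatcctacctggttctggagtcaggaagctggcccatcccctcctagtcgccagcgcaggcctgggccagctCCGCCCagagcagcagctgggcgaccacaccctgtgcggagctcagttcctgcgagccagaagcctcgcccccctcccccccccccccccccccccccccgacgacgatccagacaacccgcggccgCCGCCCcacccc
Slc25a13: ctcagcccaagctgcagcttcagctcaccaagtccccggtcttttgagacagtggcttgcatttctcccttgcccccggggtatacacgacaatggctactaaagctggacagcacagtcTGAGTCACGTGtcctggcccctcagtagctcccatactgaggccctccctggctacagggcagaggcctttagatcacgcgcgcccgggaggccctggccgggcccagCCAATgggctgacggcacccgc
Slc25a33: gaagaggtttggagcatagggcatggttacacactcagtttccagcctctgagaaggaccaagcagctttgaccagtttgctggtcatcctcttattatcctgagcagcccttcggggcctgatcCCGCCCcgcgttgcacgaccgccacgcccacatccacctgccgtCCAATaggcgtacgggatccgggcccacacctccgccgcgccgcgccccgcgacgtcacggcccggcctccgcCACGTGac
Slc25a47: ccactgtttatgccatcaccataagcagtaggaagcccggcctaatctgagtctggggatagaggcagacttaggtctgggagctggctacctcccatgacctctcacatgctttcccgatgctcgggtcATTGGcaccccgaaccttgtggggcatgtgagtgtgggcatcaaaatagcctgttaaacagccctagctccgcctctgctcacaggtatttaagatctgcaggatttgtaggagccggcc

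A set of 11 motifs was searched as exact letters on both strands. Slc25a24 held 2 Sp1 boxes (GGGCGG, capitals CCGCCC on the printed strand), a motif in 32.7% of 32851 RefSeq promoters of this length. Slc25a33 held 1 Sp1 box, 1 E-box (CACGTG, in 6.02% of promoters) and 1 CCAAT box (CCAAT, in 33.8%). Slc25a13 held 1 CCAAT box and an E-box that overlaps an AP-1 site (TGANTCA, in 6.75%), printed as a single run of capitals. Slc25a47 held 1 CCAAT box, which reads ATTGG on the printed strand. No match to the PPAR element (AGGTCA repeated after 1 base, in 0.0335% of promoters), the ERR element (TCAAGGTCA, 0.387%), the sterol element (TCACNCCAC, 1.05%) or the TATA box (TATAAA, 12.4%) was found in the 30 carriers that had a RefSeq promoter. Among those 30, 23 held an Sp1 box, 17 a CCAAT box, 6 an E-box, 5 an ETS motif (CCGGAAG, 6.91% of all), 2 an AP-1 site, 2 a cAMP element (TGACGTCA, 1.55%) and 1 an NRF1 motif (GCGCA, any base, then GCGC, in 3.74%). Counted by promoter, as the shares of all are, 30 of the 39 promoters of the carriers held an Sp1 box. GC content was 72.8% in Slc25a24 and 54.4% in Slc25a47. Its median was 52.4% over all promoters and 58% over those of the carriers.

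Levels of the family spanned from 131 FPKM for Slc25a5 to 0.539 FPKM for Slc25a53, as means over 20 mice. The 5 highest carriers were Slc25a5, Slc25a4, Slc25a3, Slc25a1 and Slc25a39, which move ADP and ATP, phosphate, citrate and, for Slc25a39, glutathione. They held 46.8% to 55.3% of the summed FPKM of the family in NC, 52.6% to 58.6% in HFD mice and 47.6% to 56.2% in SZ-A. The summed level itself was 689.8 to 883 FPKM in NC mice, 684 to 842 in HFD mice and 679.5 to 824 in SZ-A, and these ranges overlapped. Within the order of levels, neighbours such as Slc25a3 (77.7 ± 9.55 FPKM in HFD, mean ± SD, n = 7) and Slc25a1 (64.4 ± 25.2) lay within their spread. Reads behind a value, recovered from FPKM and exon length, ran from 1674 to 5434 per mouse for Slc25a5 and from 39 to 109 for Slc25a53. The lowest counts were 14 reads, in single mice for Slc25a47, Slc25a27 and Slc25a34.

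**Figure D2:**
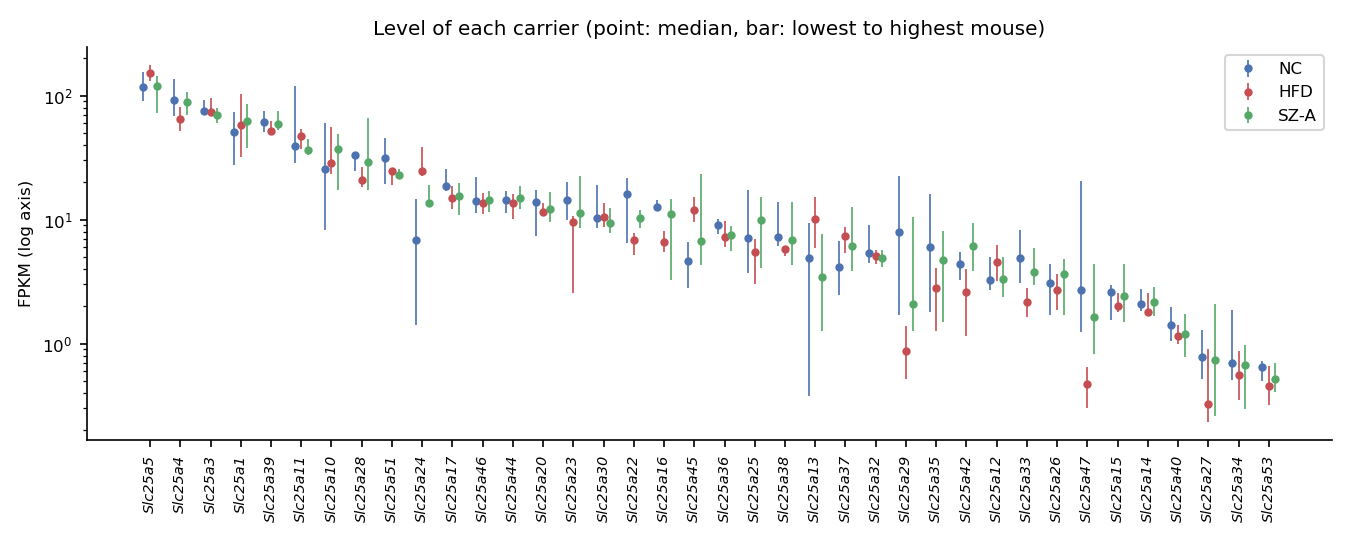
Level in FPKM (vertical log axis) of 38 of the 39 carriers in order of their mean, with the median of each group as a point and the lowest to highest mouse as a bar (NC blue, HFD red, SZ-A green). Slc25a24, Slc25a29 and Slc25a47 show HFD ranges apart from those of NC.

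Carriers of ATP and phosphate form the most expressed group, and 3 of its 6 members were called for the diet, beside 41.1% of all genes. Slc25a24, Slc25a23 and Slc25a25 exchange ATP-Mg for phosphate under the control of calcium and so set the adenine nucleotide pool of the matrix. Slc25a24 (ENSMUSG00000040322, chr3:109123149-109168457, plus strand) measured 1.42 to 14.6 FPKM (median 6.85) in NC, 22.7 to 38.3 (median 24.7) in HFD and 13.03 to 18.9 (median 13.7) in SZ-A. Every HFD mouse was above every NC mouse and every SZ-A mouse. The HFD mean was 3.82 times that of NC (log2 fold change 1.98 ± 0.32 (SE), limma adjusted p = 0.000326), and the SZ-A mean was 52.5% of that of HFD (log2 fold change -0.87 ± 0.13 (SE), limma adjusted p = 0.00069). In both comparisons the exact two-sided permutation p was 0.000583, the smallest these group sizes can give. The SZ-A mean was 2.01 times the NC mean, with a log2 difference of 1.10 (95% interval 0.42 to 1.78) that missed the threshold (limma adjusted p = 0.0678), and it passed on leaving out NC 3 (adjusted p = 0.017) or NC 6 (adjusted p = 0.0353). NC 6, the library with few adipocyte markers, held the lowest Slc25a24 of all, 1.42 FPKM. With the epididymis and epithelial marker level as a covariate the diet value turned to -0.29 (limma adjusted p = 0.739), in a fit where the markers and the diet cannot be told apart because their ranges in NC and HFD do not overlap.

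Its paralog Slc25a23 moved the other way. It measured 9.88 to 20.2 FPKM (median 14.5) in NC, 2.55 to 10.7 (median 9.58) in HFD and 8.51 to 22.7 (median 11.4) in SZ-A, and it fell under the diet (log2 fold change -0.90 ± 0.28 (SE), limma adjusted p = 0.0199). HFD 1 was lowest at 2.55 FPKM. Against HFD the SZ-A value was 0.84 (95% interval 0.22 to 1.46), just short of the threshold (limma adjusted p = 0.0506), and it passed without HFD 4, HFD 6, SZ-A 2 or SZ-A 5 (adjusted p = 0.0282 to 0.0486). Slc25a25, the third of these carriers, was not called for the diet (-0.43, 95% interval -0.99 to 0.13) and was higher with SZ-A (log2 fold change 0.74 ± 0.22 (SE), limma adjusted p = 0.027). SZ-A mice ranged over 4.06 to 15.2 FPKM (median 9.98) and HFD mice over 3.01 to 6.91 (median 5.48), so the groups overlapped. That call was lost without HFD 1, HFD 3, HFD 5, SZ-A 3 or SZ-A 4 (adjusted p = 0.0519 to 0.0592).

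Of the ADP/ATP pair, Slc25a4 was called in both comparisons. Slc25a4 (ENSMUSG00000031633, chr8:46206797-46211284, minus strand), the form known from heart and muscle, measured 68.8 to 136 FPKM (median 91.6) in NC, 52.1 to 80.8 (median 64.8) in HFD and 69.6 to 106 (median 88.98) in SZ-A. It fell under the diet (log2 fold change -0.52 ± 0.17 (SE), limma adjusted p = 0.0224) and was higher with SZ-A (log2 fold change 0.43 ± 0.13 (SE), limma adjusted p = 0.0304), although the groups overlapped in both. The second of these calls was lost without any of HFD 1, HFD 2, HFD 3, SZ-A 1, SZ-A 3, SZ-A 4 or SZ-A 7, at an adjusted p of 0.055 to 0.0664. Slc25a5, the more widely expressed form, measured 90.1 to 156 FPKM (median 117) in NC, 132 to 177 (median 153) in HFD and 72.96 to 144 (median 119.8) in SZ-A. Its differences were 0.35 for the diet (95% interval 0.04 to 0.66, limma adjusted p = 0.0657) and -0.41 for SZ-A (-0.73 to -0.10, adjusted p = 0.0533), neither past the threshold. The second passed without SZ-A 2, SZ-A 5 or SZ-A 7 (adjusted p = 0.0359 to 0.0498) and the first without NC 1 (adjusted p = 0.029). An annotated pseudogene of Slc25a5 exists, so its reads are less certain. Slc25a3, which imports phosphate, measured a mean of 77.7 FPKM in NC and 77.7 in HFD, with a difference of -0.00 and an interval of -0.26 to 0.25.

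The balance between related carriers was described by the ratio of their FPKM, taken within each mouse for 7 pairs with the same cargo. The pairs were chosen after the single values were seen, so the ratios are given as a description. Exact permutation tests were run on the log2 ratios, but their p-values are not used as support here. Their adjusted threshold enters only the closing counts over settings. The ratio of Slc25a5 to Slc25a4 was 1.14 to 1.48 in NC (median 1.31), 2.12 to 2.85 in HFD (median 2.43) and 0.940 to 1.94 in SZ-A (median 1.17). HFD overlapped neither group, whereas SZ-A and NC overlapped. The log2 ratio differed by 0.88 ± 0.08 (SE) between HFD and NC and by -0.85 ± 0.15 (SE) between SZ-A and HFD. Between SZ-A and NC it differed by 0.03 ± 0.16 (SE).

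Slc25a24 to Slc25a23 showed the widest shift. The ratio was 0.102 to 0.970 in NC mice, 2.11 to 15.01 in HFD mice and 0.605 to 1.66 in SZ-A, so Slc25a23 exceeded Slc25a24 in 6 of 6 NC mice and Slc25a24 exceeded Slc25a23 in 7 of 7 HFD mice. The highest ratio came from HFD 1. The log2 ratio of SZ-A lay above that of NC by 1.35 ± 0.52 (SE), a difference of 0.67 without NC 6, SZ-A 2, SZ-A 5 and SZ-A 7. Citrin against aralar, the paired aspartate/glutamate carriers Slc25a13 and Slc25a12, gave 1.87 to 2.64 in the HFD mice and 0.537 to 1.85 in the SZ-A mice, with no overlap and a log2 difference of -1.05 ± 0.27 (SE). NC spread from 0.139 in NC 3 to 2.93 in NC 6. The mitoferrins Slc25a37 and Slc25a28, which bring in iron, had a ratio of 0.0768 to 0.270 in NC mice, 0.202 to 0.470 in HFD mice and 0.115 to 0.306 in SZ-A. For the pyrimidine nucleotide carriers Slc25a33 and Slc25a36 the median ratio was lowest in HFD, with a range of 0.220 to 0.396 against 0.306 to 0.840 in NC and 0.394 to 0.804 in SZ-A. The glutathione pair Slc25a39 and Slc25a40 gave log2 differences of -0.02 ± 0.20 (SE) for the diet and 0.22 ± 0.18 (SE) for SZ-A.

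**Figure D3:**
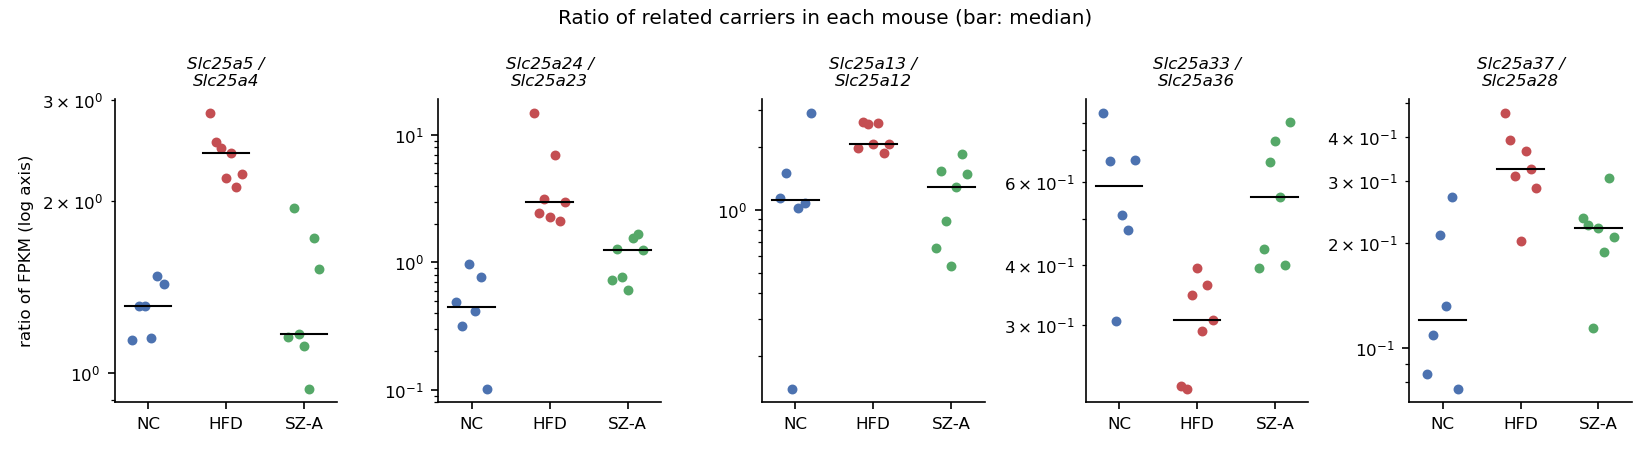
Ratio of FPKM of paired carriers (vertical log axis) with a point per mouse and the group median as a bar (NC blue, 6 mice, HFD red, 7, SZ-A green, 7). The 7 HFD mice sit above all NC and SZ-A mice for Slc25a5 to Slc25a4 and for Slc25a24 to Slc25a23, and the HFD median is the lowest for Slc25a33 to Slc25a36.

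Amino acid carriers held the widest changes, with 4 of 7 called for the diet and 3 of 7 for SZ-A, beside 41.1% and 22.8% of all genes. Slc25a13 (ENSMUSG00000015112, chr6:6041218-6217173, minus strand), citrin, hands aspartate to the cytosol in the malate-aspartate shuttle. It measured 0.377 to 9.41 FPKM (median 4.91) in NC, 5.93 to 15.3 (median 10.1) in HFD and 1.27 to 7.69 (median 3.44) in SZ-A. It rose 2.26-fold under the diet (log2 fold change 1.22 ± 0.37 (SE), limma adjusted p = 0.0189) and the SZ-A mean was 38.6% of the HFD mean (log2 fold change -1.29 ± 0.28 (SE), limma adjusted p = 0.00534). NC 3 was lowest at 0.377 FPKM, from 23 reads, and without it the diet value was 0.85 and still called. Its paralog Slc25a12 (aralar) differed by 0.31 for the diet (95% interval -0.03 to 0.65) and -0.40 for SZ-A (-0.72 to -0.09), neither called.

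Slc25a29 (ENSMUSG00000021265, chr12:108825873-108835883, minus strand), a carrier of basic amino acids, fell most of all 39 under the diet. It measured 1.70 to 22.7 FPKM (median 7.90) in NC and 0.516 to 1.38 (median 0.871) in HFD, with no overlap, so the HFD mean was 7.70% of the NC mean (log2 fold change -2.28 ± 0.45 (SE), limma adjusted p = 0.00125). In SZ-A it measured 1.27 to 10.5 (median 2.07), higher than HFD (log2 fold change 1.20 ± 0.33 (SE), limma adjusted p = 0.0183). The NC and SZ-A values were uneven: NC 1 (22.6), NC 6 (22.7), NC 2 (10.8), SZ-A 7 (10.5) and SZ-A 2 (8.88) stood above the rest, and these 5 mice also had the 5 highest epididymis and epithelial marker levels. Those mice also had the 5 highest levels of the testis germ cell markers (2 found of 10 looked for), 2.78 to 4.84. Which cells these marker levels reflect was not tested. The same 5 mice were highest for Slc25a35, and 4 of them were among the 5 highest for Slc25a33. Other carriers shared 3 or fewer. Without NC 6 the diet difference was -2.00 (limma adjusted p = 0.00148), with NC 1 and NC 2, whose marker levels were 5.62 and 5.70, still in the fit. Without SZ-A 2, SZ-A 5 and SZ-A 7 the SZ-A difference was 0.76 (adjusted p = 0.00313). With all 3 groups in one fit the SZ-A call was lost (adjusted p = 0.0795). With the marker level as a covariate the SZ-A value was 0.60 (adjusted p = 0.0413) and the diet value turned to 1.02 (adjusted p = 0.305). In that diet fit, too, the marker level and the diet cannot be told apart.

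**Figure D4:**
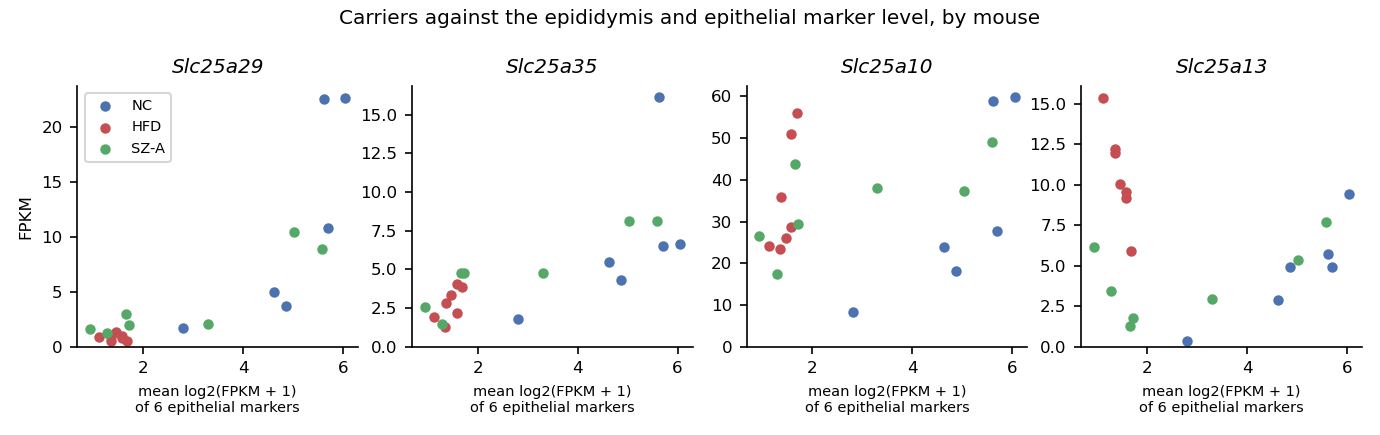
FPKM of 4 carriers (vertical axis) against the mean log2(FPKM + 1) of 6 epididymis and epithelial markers (horizontal axis), with a point per mouse (NC blue, HFD red, SZ-A green). The highest Slc25a29 and Slc25a35 values lie at the right, in 3 NC and 2 SZ-A mice, while the 7 HFD mice lie at 1.12 to 1.68 on the horizontal axis.

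Slc25a47, described as a liver-enriched carrier, is the neighbour of Slc25a29 on chromosome 12 (ENSMUSG00000048856, chr12:108836046-108856815, plus strand), and the annotated spans of the pair lie 162 bases apart in GENCODE. The RefSeq start used for the promoter above, next to chr12:108851128, lies inside the GENCODE span. The 162 bases are therefore not the distance from that start to Slc25a29. Slc25a47 measured 1.23 to 20.3 FPKM (median 2.72) in NC, 0.304 to 0.642 (median 0.469) in HFD and 0.819 to 4.42 (median 1.65) in SZ-A. HFD did not overlap NC (log2 fold change -1.66 ± 0.41 (SE), limma adjusted p = 0.00536) or SZ-A (log2 fold change 0.94 ± 0.20 (SE), limma adjusted p = 0.00421), each at an exact p of 0.000583. NC 6 held 20.3 FPKM, and without the libraries that stood apart the diet difference was -1.22 and that of SZ-A 0.57 (limma adjusted p = 0.000181 and 0.00278). With the marker covariate the diet value turned to 0.75 (limma adjusted p = 0.558), and with all 3 groups in one fit the SZ-A call was lost (adjusted p = 0.0868). Levels were low, from 14 to 883 reads per mouse, and with a pseudocount of 0.1 in place of 1 the values were -2.65 and 1.73.

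Slc25a22 (ENSMUSG00000019082, chr7:141429744-141437892, minus strand), a glutamate carrier, measured 6.49 to 21.8 FPKM (median 16.2) in NC, 5.17 to 7.79 (median 6.83) in HFD and 8.53 to 11.9 (median 10.3) in SZ-A. It fell under the diet (log2 fold change -0.95 ± 0.26 (SE), limma adjusted p = 0.00989), with NC 5 and NC 6 inside the HFD range, and with SZ-A it was above every HFD mouse (log2 fold change 0.59 ± 0.11 (SE), limma adjusted p = 0.00189). That call was lost with all 3 groups in one fit (adjusted p = 0.0665 from limma). Slc25a38, which supplies glycine for heme synthesis, fell under the diet with no overlap (log2 fold change -0.43 ± 0.16 (SE), limma adjusted p = 0.0398), from 6.10 to 13.9 FPKM (median 7.18) in NC to 5.13 to 5.98 (median 5.74) in HFD. NC 6 was highest, and without it the diet value was -0.29 (limma adjusted p = 0.0391). In SZ-A it measured 4.31 to 13.9 (median 6.81) and was not called (0.33, 95% interval -0.03 to 0.68), with its highest value in SZ-A 5. Slc25a44, which carries branched-chain amino acids, measured 11.2 to 16.98 FPKM (median 14.3) in NC, 10.03 to 16.1 (median 13.7) in HFD and 12.1 to 18.7 (median 15.05) in SZ-A. Its differences were -0.08 (95% interval -0.37 to 0.21) and 0.13 (-0.14 to 0.40). Slc25a15, the ornithine carrier, was not called in either comparison (-0.14 and 0.22). Of 15 enzymes of branched-chain amino acid breakdown tested, 9 fell and 0 rose under the diet, where 41.1% of all genes were called, and 6 rose and 0 fell with SZ-A, where 22.8% were. Bckdhb of the branched-chain ketoacid dehydrogenase changed by -1.31 (limma adjusted p = 0.0101) and 1.25 (limma adjusted p = 0.0101), and Ivd, which acts on the leucine product, by -1.16 and 0.89.

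Among 11 carriers of cofactors and nucleotides, 4 were lower and 0 higher under the diet, and 2 were higher with SZ-A. Over all genes 20.1% were lower and 21% higher under the diet, and 9.47% were higher with SZ-A. Slc25a33 (ENSMUSG00000028982, chr4:149744036-149774277, minus strand), a pyrimidine nucleotide carrier, measured 3.10 to 8.18 FPKM (median 4.94) in NC, 1.65 to 2.82 (median 2.16) in HFD and 2.98 to 5.88 (median 3.77) in SZ-A. HFD overlapped neither group (log2 fold change -0.90 ± 0.16 (SE), limma adjusted p = 0.000553 against NC, and log2 fold change 0.66 ± 0.13 (SE), limma adjusted p = 0.00387 for SZ-A). With the marker covariate the diet value was 0.04 (limma adjusted p = 0.941). An annotated gene on the opposite strand covers 14.9% of its exon bases. Slc25a42 (ENSMUSG00000002346, chr8:70184340-70212305, minus strand), which brings coenzyme A into the matrix, measured 3.24 to 5.48 FPKM (median 4.42) in NC, 1.15 to 4.02 (median 2.61) in HFD and 3.82 to 9.38 (median 6.07) in SZ-A. It fell under the diet (log2 fold change -0.55 ± 0.19 (SE), limma adjusted p = 0.0281) and was 2.22 times the HFD mean with SZ-A (log2 fold change 0.93 ± 0.20 (SE), limma adjusted p = 0.00446). The diet call was lost without NC 3, NC 4, HFD 3 or HFD 5 (adjusted p = 0.0539 to 0.0551).

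Slc25a16, linked to coenzyme A uptake as well, showed the smallest adjusted p of the family for the diet. All 6 NC mice lay at 12.04 to 14.3 FPKM (median 12.7) and all 7 HFD mice at 5.46 to 8.04 (median 6.62) (log2 fold change -0.86 ± 0.10 (SE), limma adjusted p = 2.66e-05). In SZ-A it spread over 3.24 to 14.7 (median 11.1) and was not called (0.40, 95% interval -0.13 to 0.92). SZ-A 5, the library rich in red cell and mitochondrially encoded reads, was lowest at 3.24 FPKM, and without it the difference was 0.61 and called (limma adjusted p = 0.0173). Slc25a17, the peroxisomal carrier of coenzyme A and related cofactors, fell by a smaller amount (log2 fold change -0.36 ± 0.12 (SE), limma adjusted p = 0.025) and with SZ-A differed from HFD by -0.04 (95% interval -0.31 to 0.24). Slc25a51, which carries NAD, measured 19.3 to 45.2 FPKM (median 31.2) in NC, 19.1 to 25.7 (median 24.4) in HFD and 21.3 to 25.6 (median 22.7) in SZ-A, with diet and SZ-A differences of -0.38 and -0.01 that were not called. Without NC 6 the diet value of Slc25a51 was -0.51 and called (limma adjusted p = 0.00512). Slc25a26, Slc25a32, Slc25a36, Slc25a39 and Slc25a40 were not called in either comparison.

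Iron carriers moved in opposite directions under the diet. Slc25a37, mitoferrin 1, measured 2.47 to 6.72 FPKM (median 4.18) in NC and 5.41 to 8.65 (median 7.34) in HFD (log2 fold change 0.64 ± 0.20 (SE), limma adjusted p = 0.0198), and Slc25a28, mitoferrin 2, measured 24.6 to 34.8 FPKM (median 33.00) and 18.4 to 26.7 (median 20.8) (log2 fold change -0.50 ± 0.12 (SE), limma adjusted p = 0.0056). In SZ-A, Slc25a28 reached 66.6 FPKM in SZ-A 5 and 33.4 or less in the others. Neither was called against HFD (95% intervals 0.04 to 0.94 for Slc25a28 and -0.57 to 0.31 for Slc25a37). Without SZ-A 2, SZ-A 5 and SZ-A 7, Slc25a28 was called higher with SZ-A (0.45, limma adjusted p = 0.0143), as it was with the marker covariate (0.72, adjusted p = 0.0271). Of 14 genes of heme and iron-sulfur synthesis tested, 3 fell and 0 rose under the diet, where 20.1% of all genes fell and 21% rose. With SZ-A 3 rose and 0 fell, where 9.47% of all genes rose and 13.3% fell. In either direction 41.1% and 22.8% of all genes were called. Alad, an early enzyme of heme synthesis, changed by -2.52 (limma adjusted p = 0.000152) and 1.22 (limma adjusted p = 0.0199), and the erythroid enzyme Alas2 by -1.05 (limma adjusted p = 0.0356) and 1.85 (limma adjusted p = 0.00447). Of 5 red cell markers 1 fell under the diet, near the 20.1% of all genes that fell. With SZ-A 5 of 5 rose, where 9.47% of all genes did. Their mean level was 3.03 to 7.03 in NC mice, 2.72 to 5.79 in HFD mice and 5.22 to 9.10 in SZ-A. Their part in the Alas2 and mitoferrin values was not tested.

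Carriers of citrate, dicarboxylates and fatty acid, which serve lipid synthesis and oxidation, were not called in any comparison with all mice and no covariate. Slc25a1, the citrate exporter, measured 27.8 to 74.2 FPKM (median 51.01) in NC, 32.1 to 103 (median 57.5) in HFD and 37.96 to 85.9 (median 62.8) in SZ-A. Its differences were 0.25 for the diet (95% interval -0.34 to 0.84) and -0.01 for SZ-A (-0.56 to 0.54). Slc25a10, the dicarboxylate carrier, was spread widely in NC, 8.25 to 59.9 (median 25.8), and differed by 0.29 (-0.57 to 1.16) and -0.01 (-0.53 to 0.52). Slc25a11, the oxoglutarate carrier, differed by 0.05 (-0.52 to 0.62) and -0.29 (-0.52 to -0.06). Without SZ-A 2, SZ-A 5 and SZ-A 7, Slc25a11 was called lower with SZ-A (-0.36, limma adjusted p = 0.0316), and with the marker covariate too (-0.35, adjusted p = 0.0484). Slc25a10 was called higher for the diet with that covariate alone (3.19, limma adjusted p = 0.011), a fit in which the marker level and the diet cannot be told apart. Slc25a20, which admits acylcarnitine, measured 7.44 to 17.3 FPKM (median 13.8) in NC, 10.9 to 13.6 (median 11.6) in HFD and 9.63 to 16.7 (median 12.2) in SZ-A. Its intervals were -0.44 to 0.22 for the diet and -0.19 to 0.33 for SZ-A, and without SZ-A 2, SZ-A 5 and SZ-A 7 it was called higher with SZ-A (0.28, limma adjusted p = 0.0405). Around them, some enzymes did change: Cpt1a, which makes acylcarnitine outside the matrix, by 0.96 (limma adjusted p = 0.0186) for the diet and -0.66 (limma adjusted p = 0.00189) for SZ-A. Of 13 genes of citrate use and lipogenesis, 4 fell (Acacb, Elovl6, Mdh1 and Mlxipl) and 0 rose under the diet, and 3 rose (Acacb, Mlxipl and Thrsp) with SZ-A. Acacb, an acetyl-CoA carboxylase, changed by -1.73 and 1.22. In the citrate cycle 2 of 17 genes fell under the diet and 1 rose with SZ-A. Beside these lists, 20.1% of all genes fell under the diet and 9.47% rose with SZ-A.

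Members of less known role gave 3 diet calls among 5, beside 41.1% of all genes. Slc25a45 rose under the diet from 2.78 to 6.65 FPKM (median 4.66) in NC to 9.54 to 15.3 (median 12.03) in HFD with no overlap, 2.76 times the NC mean (log2 fold change 1.31 ± 0.16 (SE), limma adjusted p = 3.55e-05). In SZ-A it measured 4.28 to 23.4 (median 6.71): 5 mice lay at 6.95 FPKM or less, SZ-A 6 at 11.8 and SZ-A 5 at 23.4. It was not called against HFD (-0.59, 95% interval -1.18 to -0.00), and without SZ-A 5 the value was -0.83 and called (limma adjusted p = 0.00414). Slc25a35 fell under the diet (log2 fold change -0.89 ± 0.33 (SE), limma adjusted p = 0.046), from 1.81 to 16.1 FPKM (median 5.99) in NC to 1.27 to 4.07 (median 2.83) in HFD, and was not called for SZ-A (0.58, 95% interval -0.01 to 1.16). Its diet call was lost without any of NC 1, NC 2, NC 4, NC 6, HFD 1, HFD 2, HFD 3, HFD 5 or HFD 7 (adjusted p = 0.0556 to 0.0899), and without SZ-A 5 its SZ-A difference was called at 0.76 (adjusted p = 0.0259). Rangrf, on the opposite strand, covers 31.3% of the exon bases of Slc25a35. Slc25a34 and Slc25a53 were below 1.87 FPKM or at it in every mouse and were not called. The uncoupling-like Slc25a14, Slc25a27 and Slc25a30 and the outer membrane protein Slc25a46 were not called either.

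**Figure D5:**
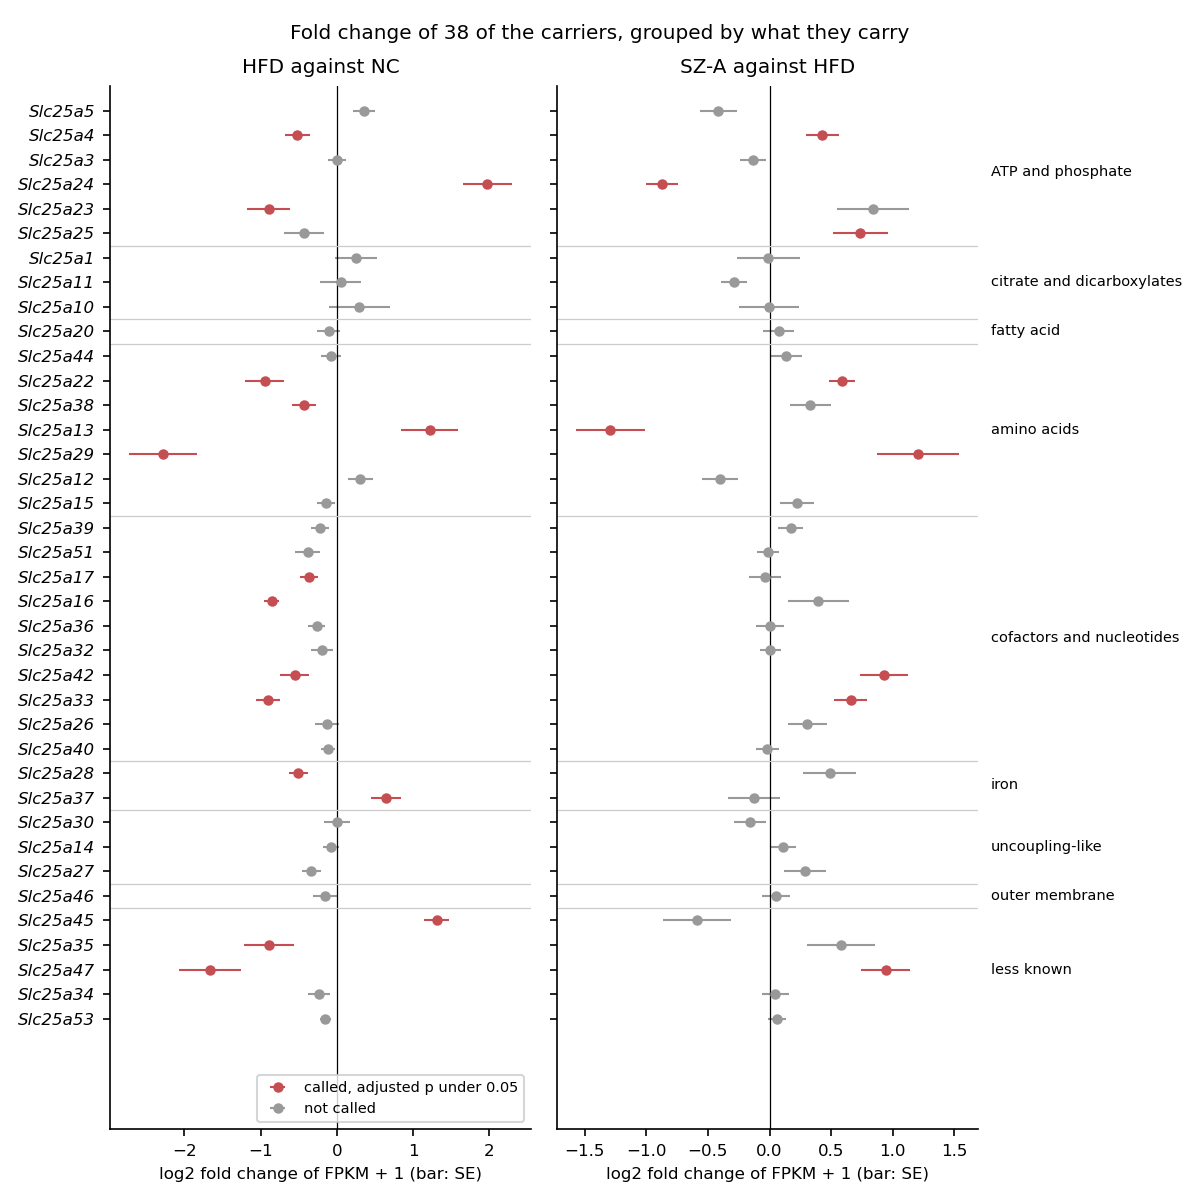
Log2 fold change of FPKM + 1 (horizontal axis, bar: SE) of 38 of the 39 carriers in HFD against NC (left, 6 NC and 7 HFD mice) and SZ-A against HFD (right, 7 and 7), grouped by cargo, with called carriers in red and others in grey. On the left 4 red points lie right of 0 and 12 left of it, and on the right 7 lie right and 2 left.

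Where groups did not overlap at all, the family gave 7 carriers for the diet, 2 higher (Slc25a24 and Slc25a45) and 5 lower (Slc25a16, Slc25a29, Slc25a33, Slc25a38 and Slc25a47). The same was true of 20.5% of all genes, 12.7% higher and 7.77% lower. For SZ-A against HFD there were 4, 3 higher (Slc25a22, Slc25a33 and Slc25a47) and 1 lower (Slc25a24), beside 6.08% of all genes (2.07% higher and 4.01% lower). For SZ-A against NC there was 0, beside 3.57% of all genes (3.22% higher and 0.347% lower). With the fold threshold of the study's methods added, an absolute log2 fold change over 1.5, 3 carriers passed for the diet (Slc25a24, Slc25a29 and Slc25a47) beside 7.97% of all genes (5.43% higher and 2.54% lower). For SZ-A against HFD 0 passed, beside 0.864% of all genes (0.306% higher and 0.558% lower), and for SZ-A against NC 0, beside 1.79% (1.73% higher and 0.0544% lower). At an unadjusted limma p under 0.05 there were 15 carriers for SZ-A against HFD, where 37.7% of all genes passed.

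Calls were counted again with the libraries that stood apart left out. Without NC 6, SZ-A 2, SZ-A 5 and SZ-A 7, 16 carriers were called for the diet, 15 of them shared with the 16 above, and 19 for SZ-A against HFD, with the 9 above among them. For the diet this setting left out NC 6 alone. It kept NC 1 and NC 2, whose epididymis and epithelial marker levels (5.62 and 5.70) were above that of SZ-A 2 (5.59). The shared diet calls were therefore not counted without those marker-rich libraries. The same setting called 45.2% of all genes for the diet and 33.7% for SZ-A against HFD. Carriers gained there included Slc25a23 (1.19), Slc25a16 (0.58), Slc25a26 (0.48), Slc25a28 (0.45), Slc25a20 (0.28) and, lower, Slc25a45 (-0.61), Slc25a12 (-0.51), Slc25a11 (-0.36) and Slc25a5 (-0.40). Leaving out SZ-A 2 alone gave 15 calls and SZ-A 5 alone 14, each with the 9 above among them. Those fits called 26.4% and 29.2% of all genes. Leaving out HFD 1, which had the highest macrophage and lowest adipocyte marker level of its group, left 7 of the 9. In that fit 16.8% of all genes were called. With the epididymis and epithelial level as a covariate, 12 were called for SZ-A against HFD, 8 of them among the 9, and 5 for the diet, of which 1 (Slc25a13, higher) was among the 16. That covariate fit called 21% of all genes for SZ-A against HFD. For the diet it called 8.12% of all genes, where 41.1% were called without the covariate. With all 3 groups in one limma fit, 5 were called for SZ-A against HFD: Slc25a4, Slc25a22, Slc25a25, Slc25a29 and Slc25a47 lost their call (adjusted p = 0.0645 to 0.0868) and Slc25a23 gained it (adjusted p = 0.0441). The share of all genes called for SZ-A against HFD in that fit was 14.2%.

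Other mitochondrial carriers and pores, from a list of 22 in the table, gave 6 higher and 2 lower under the diet and 3 higher and 3 lower with SZ-A. Over all genes 21% were higher and 20.1% lower under the diet, and 9.47% higher and 13.3% lower with SZ-A. These shares also stand beside the other lists of this paragraph. Ucp2, an uncoupling protein that macrophages express strongly, changed by 1.97 (limma adjusted p = 0.000497) and -1.02 (limma adjusted p = 0.00234). The rule on symbols left Ucp2 out of the family counts above. Mcu, the pore of the calcium uniporter, rose under the diet by 0.70 and gave -0.30 (limma adjusted p = 0.104) with SZ-A. Sfxn1, a serine carrier, fell by 1.41 on the log2 scale under the diet, and its relative Sfxn3 rose by 0.87. Mpc2 of the pyruvate carrier changed by -0.78 (limma adjusted p = 0.0173) and 0.52 (limma adjusted p = 0.0332), and Mpc1 by -0.43 (limma adjusted p = 0.1) and 0.22 (limma adjusted p = 0.255). Ucp1 was not analysed here. A list of general mitochondrial genes gave 5 lower and 0 higher of 15 for the diet and 2 higher for SZ-A. Macrophage markers moved with these groups: 19 of 20 rose under the diet and 18 of 20 fell with SZ-A. Adipocyte markers gave 3 lower of 16 for the diet (Cfd, Retn and Acsl1) and 2 higher for SZ-A, and smooth muscle markers 5 lower of 9 and 2 higher. Their part in the carrier values was not tested.

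Against NC, carriers in the SZ-A mice were not called by limma in the pairwise fit, and the median log2 difference was -0.09 over the 39 and -0.00 over all genes. In 33 of 39 the difference was under 0.5 in size. The furthest were Slc25a24 (1.10) and Slc25a29 (-1.08, 95% interval -2.28 to 0.13). Slc25a45 (0.72, 0.04 to 1.41), Slc25a17 (-0.40, -0.73 to -0.07) and Slc25a51 (-0.39, -0.75 to -0.04) also had intervals that left out 0, as Slc25a24 did, at limma adjusted p-values of 0.24, 0.167 and 0.215. A missed threshold does not show equal levels, as the intervals of Slc25a29 and Slc25a47 (-1.69 to 0.25) show by their width.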

How the data were processed

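RNA from eWAT was sequenced as poly(A) paired-end reads, and per the labels the libraries came from 6 NC, 7 HFD and 7 SZ-A mice, where the paper gives 7 in each group. The authors aligned reads to GRCm38 with HISAT2, and the submitters' processing notes name featureCounts 1.5.0-p3. The values used were FPKM as deposited by the authors, 14776 genes, each above 0 in every mouse, so counting and scaling to length and depth were already done. Whole reads were recovered from FPKM and exon length in GENCODE M21 (14770 genes found): 95.9% to 96.3% of values under 1000 reads were whole within 0.01 reads, and the totals were 13567667 to 19388628 reads per mouse, which sets the precision of low carriers. Read intervals were not computed, and strand was not stated for the counting, so genes overlapping on opposite strands cannot be told apart.

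limma 3.58.1 (R 4.3.3, two-sided, trended variance) was fitted to log2(FPKM + 1) for each pair of groups, leaving out genes whose mean FPKM was under 0.1, which all 39 carriers passed. p-values were Benjamini-Hochberg adjusted over all genes tested. Exact permutation tests over mice served single carriers and, for the closing counts over settings, the ratios. The code was tested on simulated data: limma and voom recovered the planted changes, and the exact rank-sum alternative recovered none in the comparisons with NC. Alternatives were another pseudocount, filter, scaling or test, recovered reads with voom, a replicate block, a marker covariate and leaving out mice. The settings without libraries that stood apart, and those for the ratios, were added after seeing the data. Carriers named with values were up to 12 of the largest called in each main comparison, the 5 with the highest level and 6 fixed ones (Slc25a1, Slc25a20, Slc25a10, Slc25a44, Slc25a4 and Slc25a5), and others were named after their values were seen. The carriers, role groups and gene lists were chosen with earlier results of these data known. Of 48 annotated symbols, 9 (a pseudogene included) were not analysed here. Promoters are from RefSeq (30 of 39 carriers matched). Values of 1 carrier are not reported here, though it is in the counts.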

Additional observations from a re-analysis of the deposited data

Results flagged for a closer look

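In each of 3 groups, the highest and lowest mouse of each of the 39 carriers were set against their nearest neighbour. Gaps were taken on log2(FPKM + 1), as a share of the range on that scale, and the levels below are FPKM. Of 117 groups in all, 3 gaps passed the 95% limit of Dixon, where chance gives about 1 in 20. Slc25a11 in NC had its highest value in NC 6, 119 FPKM against 43.3 in the nearest mouse, a gap of 0.711 of the log2 range. That library also had the lowest adipocyte marker level. Slc25a51 in HFD had its lowest value in HFD 3, 19.1 FPKM against 22.8, a gap of 0.593. Slc25a26 in SZ-A had its lowest value in SZ-A 2, 1.71 FPKM against 3.25, a gap of 0.595, and that library had the highest epididymis and epithelial level of the SZ-A group.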

How the results depend on the processing

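For single carriers and ratios, 600 of 672 values under other settings and 1023 of 1120 without 1 mouse kept direction and, where called by a test, their side of the threshold. Called carriers for HFD against NC numbered 16 (4 higher, 12 lower) and were 15 to 19 with a pseudocount of 0.1, no filter, a filter at mean 1 FPKM, median-ratio scaling, quantile normalization, voom and all groups in one fit, and 13 (3 and 10) by an exact rank-sum test. For SZ-A against HFD they numbered 9 (7 higher, 2 lower), and were 9 or 10 with those settings, except 5 (3 and 2) with all groups in one fit, where SZ-A against NC gave 2 (both higher). Median-ratio scaling, voom and the rank-sum test gave 3 lower carriers for SZ-A against HFD. Across these settings, the rank-sum test included, 35.5% to 42.3% of all genes were called for HFD against NC. For SZ-A against HFD the share was 14.2% to 24.9%. With the marker covariate the calls were 5 (2 higher, 3 lower), 12 (7 and 5) and 0, beside 8.12%, 21% and 0.761% of all genes. With libraries that stood apart left out they were 16 (4 and 12), 19 (13 and 6) and 2 (2 and 0), beside 45.2%, 33.7% and 7.66% of all genes. With the fold threshold they were 3 (1 and 2), 0 (0 and 0) and 0. Without 1 mouse the counts were 13 to 16 (4 to 5 higher, 9 to 12 lower), 7 to 15 (5 to 10 and 2 to 5) and 0 to 2 (0 to 1 and 0 to 1). Among all genes those fits called 35.6% to 45.2%, 16% to 29.2% and 2.87% to 5.85%. The cause of these moves was not tested, beyond the smaller number of mice where mice were left out.

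Shared replicate numbers did not pair the mice: same-numbered mice correlated at -0.28 to 0.30 (HFD and NC, 2 of 6 pairs over 0.1), -0.39 to 0.37 (SZ-A and HFD, 3 of 7) and -0.41 to 0.58 (SZ-A and NC, 2 of 6), and 1, 2 and 1 mice correlated best with their own number. A replicate block gave 10 calls (2 higher, 8 lower), 8 (6 and 2) and 0, and left out HFD 7 or SZ-A 7 where NC has no such mouse. Among all genes it called 30.1%, 17.8% and 1.18%.

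Directions that turned were, with median-ratio scaling for HFD against NC Slc25a3 0.00264. They were, with voom on recovered reads for HFD against NC Slc25a3 0.00211 and for SZ-A against NC Slc25a13 0.0474. They were, with a replicate block for HFD against NC Slc25a3 0.0108 and for SZ-A against NC Slc25a20 0.00108, Slc25a23 0.00518. They were, with the marker covariate for HFD against NC Slc25a4 0.0879, Slc25a39 0.27, Slc25a29 1.02, Slc25a24 -0.29, Slc25a47 0.75, Slc25a33 0.0414, Slc25a35 1.20, Slc25a37 -0.55 and for SZ-A against HFD Slc25a1 0.0621, Slc25a37 0.16 and for SZ-A against NC Slc25a44 -0.11, Slc25a4 0.00557, Slc25a5 0.22, Slc25a39 0.00875, Slc25a29 0.19, Slc25a13 0.69, Slc25a33 0.0267, Slc25a35 0.48, Slc25a37 -0.00778, Slc25a25 -0.28. They were, with quantile normalization for SZ-A against HFD Slc25a10 0.0137 and for SZ-A against NC Slc25a44 -0.00367. They were, with the libraries that stood apart left out for HFD against NC Slc25a39 to Slc25a40 0.12 and for SZ-A against HFD Slc25a1 0.34, Slc25a10 0.0309 and for SZ-A against NC Slc25a20 0.25, Slc25a23 0.29, Slc25a5 to Slc25a4 -0.00492. They were, with a pseudocount of 0.1 for SZ-A against NC Slc25a13 0.0129. They were, with a pseudocount of 1 in the ratio for SZ-A against NC Slc25a33 to Slc25a36 0.0148. Without 1 mouse, the values that turned in at least 1 fit ranged for HFD against NC Slc25a10 -0.0240 to 0.52, Slc25a3 -0.0543 to 0.0502, Slc25a39 to Slc25a40 -0.12 to 0.12. They ranged for SZ-A against HFD Slc25a1 -0.16 to 0.12, Slc25a10 -0.0986 to 0.14. They ranged for SZ-A against NC Slc25a10 -0.0297 to 0.51, Slc25a13 to Slc25a12 -0.39 to 0.49, Slc25a13 -0.44 to 0.15, Slc25a20 -0.18 to 0.0431, Slc25a23 -0.17 to 0.0524, Slc25a33 to Slc25a36 -0.17 to 0.12, Slc25a39 -0.10 to 0.00916, Slc25a4 -0.18 to 0.0190, Slc25a44 -0.00759 to 0.10, Slc25a5 to Slc25a4 -0.0614 to 0.11, Slc25a5 -0.14 to 0.0448. Shallow carriers, such as Slc25a47 at 14 reads in its lowest mouse, have the least precise values.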
